A study of Mus musculus with 47 samples.

Results

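The inflammatory chemokines described here are 10 of the 18194 genes measured: Ccl2, Ccl3, Ccl4, Ccl5, Ccl7, Cxcl1, Cxcl2, Cxcl5, Cxcl12 and Cxcl16. They were chosen by name, as the genes whose symbol in the platform annotation is exactly 1 of these, and each was read by the brightest of its probe sets over all arrays. RNA was measured on 47 Affymetrix arrays of mouse B cell lymphoma cells. The cells came from lymph nodes of Eµ-myc mice, in which an immunoglobulin enhancer drives Myc in the B lineage. All of them, untreated cells included, carried a retroviral Bcl2 against apoptosis with 48 h of puromycin selection, and their feeder layer was NIH 3T3, a mouse fibroblast line irradiated with 20 Gy.

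The 7 groups are as follows. Suv39h1 WT lymphomas, which have this H3K9 methyltransferase, were measured native (untreated, n = 14) and after 0.05 µg/ml Adriamycin (ADR, the DNA-damaging drug doxorubicin) for 5 days (n = 14). Suv39h1-deficient lymphomas (Suv39h1-) were measured in both states too (n = 5 each). The Suv39h1ER cultures SuvER-4146, SuvER-4936 and SuvER-5043 are labelled Suv39h1- plus Suv39h1ER, that is, deficient cells given a fusion protein named as an estrogen receptor (ER) fusion. Each was measured in 3 states, namely native, with ADR, and with ADR plus 4OHT (4-hydroxytamoxifen, an ER ligand whose dose is not given in the labels). By the labels, senescence was reached in 2 groups, WT with ADR and Suv39h1ER with ADR plus 4OHT. The number 5043 also names a WT lymphoma and 4936 a Suv39h1- lymphoma, which the labels do not explain. The ages of the mice are not stated.

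Chemokines are small secreted proteins that steer leukocytes through G protein-coupled receptors. The CC and CXC families are named for the spacing of their N-terminal cysteines. Many of the inflammatory members are switched on by NF-kB, C/EBP and cytokine signalling, and chemokines are well known components of the secretory programme of senescent cells. Fibroblasts and macrophages are strong producers of several of them, which is why the changes were also read beside Col1a2, a fibrillar collagen gene of fibroblasts, and Ms4a7, a membrane protein gene of macrophages.

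Promoters are shown for Cxcl1, Cxcl2 and Ccl3, because Cxcl1 and Cxcl2 lie side by side and both rose in WT lymphomas, and Cxcl2 and Ccl3 were called higher in the Suv39h1ER cultures both with ADR alone and with ADR plus 4OHT. Of the 10 members, Ccl3, Cxcl1, Cxcl2 and Cxcl12 had an entry in the RefSeq promoter table (GRCm38.p6), which holds 250 bases before and 50 after the start of transcription. The 120 bases that end just before the start are printed 5′ to 3′ on the gene's strand, with a match to the NF-kB consensus in capitals. They lie at chr5:90891125-90891244 (plus strand) for Cxcl1, at chr5:90903779-90903898 (plus strand) for Cxcl2 and at chr11:83649379-83649498 (minus strand) for Ccl3.
Cxcl1: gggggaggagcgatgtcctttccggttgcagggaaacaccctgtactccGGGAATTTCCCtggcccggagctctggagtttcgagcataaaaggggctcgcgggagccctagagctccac
Cxcl2: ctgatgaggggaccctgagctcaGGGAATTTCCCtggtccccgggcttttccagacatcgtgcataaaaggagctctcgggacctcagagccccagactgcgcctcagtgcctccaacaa
Ccl3: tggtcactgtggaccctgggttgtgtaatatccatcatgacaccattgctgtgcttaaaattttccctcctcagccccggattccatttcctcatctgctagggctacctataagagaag

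The Cxcl1 and Cxcl2 promoters held the same 11-base stretch, GGGAATTTCCC, 71 to 61 bases before the start in Cxcl1 and 97 to 87 bases before it in Cxcl2. It matched the NF-kB consensus once on each strand, with both matches overlapping. Over the whole 300-base window, neither the Ccl3 nor the Cxcl12 promoter held this consensus on either strand, and none of the 4 held the AP-1 motif TGANTCA. Among all 32851 promoters of that table, 4.51% held the NF-kB consensus and 7.81% the AP-1 motif. A match describes the letters only.

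Several facts of the arrays touch the results. The ADR array of Suv39h1- lymphoma 1032 had a median log2 value of 4.07, and all other arrays had medians of 4.32 to 4.43. The 200 probe sets that best tell lymphomas apart were picked on the WT and Suv39h1- arrays themselves, without the Suv39h1ER arrays. Over these probe sets, arrays of WT 2949, 5043, 5766 and 6054 correlated with each other at a median of 0.61 (-0.11 to 0.89). Those of Suv39h1- 7890 and 9250 had a median of 0.45 (0.43 to 0.47). Arrays of 1 lymphoma had a median of 0.65 (0.08 to 0.97), a value that this choice of probe sets raises. Other arrays under different labels had a median of -0.06 (-0.74 to 0.81), so whether these alike lymphomas are separate was not settled. Arrays of the same Suv39h1ER culture had a median of 0.36, and arrays of different Suv39h1ER cultures 0.13. Because the probe sets were not picked on Suv39h1ER arrays, these medians cannot be set against the 0.65. The 8 measured B cell markers averaged 7.55 to 10.35 per array, and 3 of them fell under ADR in WT lymphomas (Cd22 by 1.43 on the log2 scale, adjusted p = 3.36e-07). Of all genes, 14.1% were called lower there. The 7 T cell markers, 5 NK cell markers and 6 endothelial markers gave no higher call under ADR in WT lymphomas. The 3′ minus 5′ difference of the Actb controls, a sign of RNA quality, ran from 0.31 to 0.83 in native WT and from 0.38 to 1.12 in WT ADR arrays, and from 0.71 to 1.07 and from 0.68 to 1.19 in those of Suv39h1- lymphomas. In Suv39h1ER cultures it ran from 0.91 to 1.39 native, from 0.47 to 0.79 under ADR and from 0.88 to 0.92 with 4OHT, so native and ADR arrays did not overlap. The same difference for Gapdh was 0.08 ± 0.05 in native WT and 0.18 ± 0.23 in WT ADR arrays (SD, n = 14), with highest values of 0.17 and 0.91. The part of RNA quality in the results was not tested.

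Under ADR, 8 of the 10 chemokines rose in WT lymphomas and none fell, where 16.1% of all genes were called higher. A gene was called at an adjusted p under 0.05 in limma, over all genes. The median change of the 10 members was 1.09 on the log2 scale, beside -0.0002 for all genes. Cxcl5 rose 13.7-fold, Ccl2, Cxcl2 and Ccl7 each rose by over 7-fold, and Ccl3, Ccl4, Cxcl1 and Cxcl16 rose 1.45- to 2.36-fold. Ccl5 and Cxcl12 were not called. With the alike lymphomas counted once, the same 8 genes were called.

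Ccl2 and Ccl7 attract monocytes through Ccr2. The log2 level of Ccl2 in native WT lymphomas had its lowest value at 5.46, its median at 6.10 and its highest at 8.20, and under ADR these were 6.93, 9.43 and 12.98. Of the 14 ADR arrays, 9 lay above every native array. Ccl2 was higher under ADR in 14 of 14 lymphomas, by 2.91 ± 1.57 (SD, n = 14; SE 0.34, adjusted p = 6.75e-07), with the smallest change in lymphoma 1467 (0.44) and the largest in 5560 (4.84).

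Ccl7 ran from 3.07 over a median of 3.90 to 5.06 in native WT arrays and from 4.35 over 6.65 to 10.66 under ADR, and 11 of 14 ADR arrays exceeded all native ones. Its change was 2.84 ± 1.81 (SD, n = 14; SE 0.37, adjusted p = 2.86e-06), above 0 in 14 of 14 lymphomas. The highest ADR level of both genes was in lymphoma 403 and the lowest in 2949.

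Ccl3 and Ccl4 draw macrophages, T cells and NK cells. In WT lymphomas the lowest, median and highest levels of Ccl3 were 6.97, 8.71 and 10.05 native and 8.46, 9.86 and 10.75 under ADR. The ranges overlapped, with 5 of 14 ADR arrays above all native ones. Its change of 1.24 ± 0.68 (SD, n = 14; SE 0.29, adjusted p = 0.00172) was above 0 in every WT lymphoma.

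The Ccl4 levels were 5.06, 6.53 and 7.62 native and 5.73, 7.40 and 8.69 under ADR (lowest, median and highest). Its change of 0.94 ± 0.81 (SD, n = 14; SE 0.19, adjusted p = 0.000515) was above 0 in 13 of 14 lymphomas, all but 1467 (-0.22). Ccl3 and Ccl4 are neighbours on chromosome 11, and their spans overlap in the RefSeq annotation, compared without regard to strand. Whether their probe sets share transcripts was not tested. The fit without the pairing of arrays ended both calls (adjusted p = 0.089 for Ccl3 and 0.0669 for Ccl4).

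Ccl5, a T cell attractant, differed widely between lymphomas. It ran from 4.32 over 6.45 to 8.40 in native WT arrays and from 5.12 over 7.05 to 8.88 under ADR. Its change had a mean of 0.44 ± 0.91 (SD, n = 14; 95% interval -0.08 to 0.95, adjusted p = 0.216) and was above 0 in 9 of 14 lymphomas, from -0.93 in 3594 to 2.28 in 1570.

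Cxcl1, Cxcl2 and Cxcl5 attract neutrophils through Cxcr2. Cxcl5 was low in all native WT arrays, with levels from 1.71 over a median of 3.27 to 3.76, and spread from 3.45 over 6.13 to 11.66 under ADR. All ADR arrays but that of lymphoma 2949 lay above the highest native array. The change was 3.78 ± 2.73 (SD, n = 14; SE 0.56, adjusted p = 1.19e-05) and ran from 0.24 in 2949 to 8.35 in 403.

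Cxcl2 ran from 3.26 over 5.10 to 7.96 in native WT arrays and from 6.0 over 7.88 to 10.80 under ADR, with 7 of 14 ADR arrays above all native ones. Its change of 2.90 ± 1.11 (SD, n = 14; SE 0.35, adjusted p = 8.76e-07) was above 0 in 14 of 14 lymphomas and varied less between them than that of Cxcl5.

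For Cxcl1, the size of the change depended on the probe set. The brightest probe set ran from 6.54 over 6.81 to 7.51 native and from 6.83 over 7.35 to 8.48 under ADR, a change of 0.56 ± 0.56 (SD, n = 14; SE 0.14, adjusted p = 0.00293) that was above 0 in 13 of 14 lymphomas. The other two probe sets, an alternative chosen after seeing the data, gave changes of 2.16 (SE 0.36, adjusted p = 6.72e-05) and 3.06 (SE 0.47, adjusted p = 2.26e-05). Across the 14 lymphomas the changes of the 3 probe sets correlated pairwise at 0.85 to 0.97, given as a description.

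Cxcl16, which is made as a transmembrane protein and binds Cxcr6, ran from 5.22 over 5.76 to 6.88 native and from 5.64 over 6.11 to 7.87 under ADR. Its change was 0.53 ± 0.88 (SD, n = 14; SE 0.18, adjusted p = 0.0252) and above 0 in 10 of 14 lymphomas, with the largest change in 3769 (2.65) and the smallest in 403 (-0.62). The call was lost without lymphoma 2581, 3594, 3769 or 9584 in turn (changes of 0.37 to 0.48, adjusted p = 0.0556 to 0.0635), with the WT arrays fitted alone (adjusted p = 0.0794), and after quantile normalisation or median centring (adjusted p = 0.0571 and 0.0638). A further Cxcl16 probe set changed by 0.89 (adjusted p = 0.0146).

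Cxcl12, the ligand of Cxcr4 that holds B cell precursors in their niches, stayed in a narrow range of 4.11 to 4.47 native and 3.85 to 4.58 under ADR. Its change was -0.06 ± 0.18 (SD, n = 14; 95% interval -0.21 to 0.09, adjusted p = 0.631) and above 0 in 4 of 14 lymphomas. Of its 3 probe sets, 2 gave changes below 0 and 1 above 0 (0.15).

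**Figure D1:**
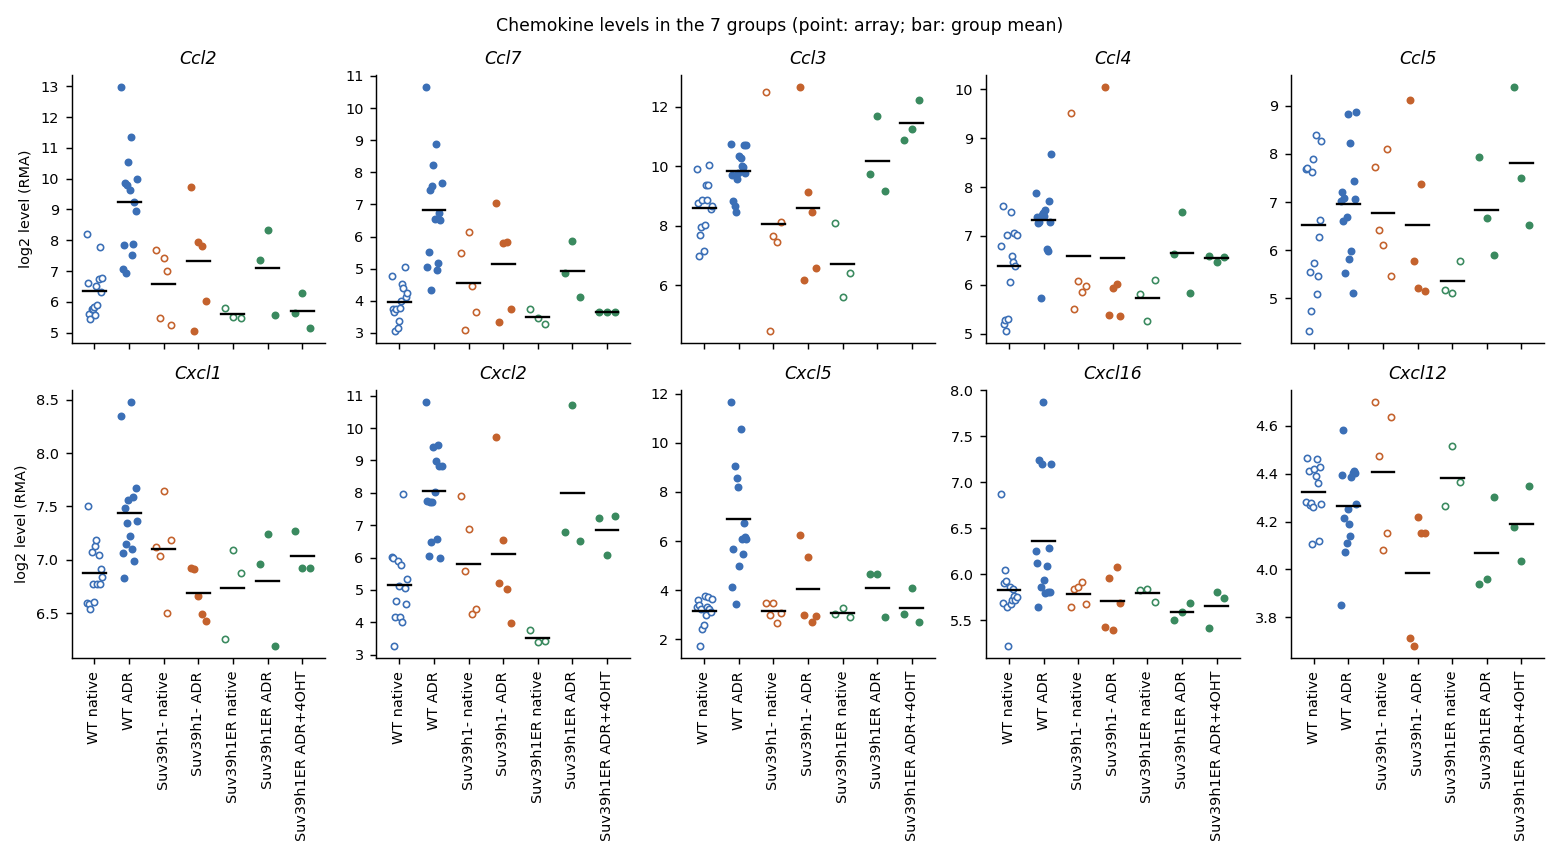
Log2 level (RMA) of each of the 10 chemokines on each array in the 7 groups, with open points for native and filled points for ADR arrays and a bar for the group mean. WT ADR arrays reach the highest levels of Ccl2 (12.98), Ccl7 (10.66) and Cxcl5 (11.66), while Suv39h1- lymphoma 1032 stands at the top of the Suv39h1- groups for Ccl3 and Ccl4.

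Other genes of the chemokine system moved in part. Among 25 measured other chemokines, 7 rose and none fell in WT lymphomas, with a median of 0.14. They included Ccl6 (1.92 ± 1.47 SD, adjusted p = 4.81e-05), Ccl9 (1.61 ± 0.84, adjusted p = 0.000236) and Ccl8 (0.93 ± 0.97, adjusted p = 0.000887), which lie among the members on chromosome 11. Among 21 measured receptors 3 rose and 2 fell, with a median of 0.02, where 16.1% of all genes were called higher and 14.1% lower. Ccr1, a receptor for Ccl3, Ccl5 and Ccl7, rose by 2.11 ± 1.23 in 14 of 14 lymphomas (adjusted p = 7.2e-06). Ackr3, a scavenging receptor of Cxcl12, rose by 2.03 ± 2.05 (adjusted p = 0.000555), and Ackr2, a scavenging receptor of inflammatory CC chemokines, fell by 0.88 on the log2 scale (SD 0.93, adjusted p = 0.0108).

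Regulators known to act upstream of chemokines were read from another pair of lists. Of 17 measured cytokines, sensors and C/EBP factors, 15 rose and none fell, with a median of 1.19, where 16.1% of all genes were called higher. Among them were Cebpd (1.78 ± 0.65, adjusted p = 5.66e-07), Cebpb (1.37 ± 0.63, adjusted p = 1.08e-06) and Csf1, the macrophage growth factor (1.67 ± 0.86, adjusted p = 1.7e-06). Of 12 measured NF-kB factors and inhibitors 5 rose and none fell, with a median of 0.30. Rela, a transactivating NF-kB subunit, rose by 0.59 ± 0.18 in 14 of 14 lymphomas (adjusted p = 2.97e-07), the inhibitor Nfkbie by 0.60 ± 0.50 (adjusted p = 0.001) and Nfkb2 by 0.31 ± 0.26 (adjusted p = 0.00161).

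Markers of other cells rose with the chemokines. In WT lymphomas 16 of 19 measured fibroblast markers, 10 of 16 macrophage markers and 4 of 11 neutrophil markers were called higher under ADR. Of all genes, 16.1% were called higher there. The mean level of the fibroblast list ran from 3.94 to 4.91 over native WT arrays and from 4.64 to 8.37 under ADR, that of the macrophage list from 4.75 to 7.12 and from 5.62 to 8.24, and that of the neutrophil list from 3.77 to 5.25 and from 4.44 to 6.18. RMA values have no zero, so none of these markers was listed at 0. Col1a2 rose by 3.09 ± 1.99 and Ms4a7 by 2.69 ± 1.29, each in 14 of 14 lymphomas. In these mixed cultures, a changed share of cells of a type and a changed amount of RNA per cell cannot be told apart. The part of feeder and macrophage RNA in the chemokine changes was not tested beyond the relations given further on.

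In Suv39h1- lymphomas none of the 10 chemokines was called under ADR, and 0.0110% of all genes were. At an unadjusted p under 0.05 limma gave 1 member, Cxcl12, and 10.4% of all genes. The median change of the members was 0.13. The levels of Cxcl2 in lymphomas 1032, 4936, 5783, 7890 and 9250 were 7.90, 5.58, 6.88, 4.26 and 4.42 native and 9.72, 5.21, 6.54, 5.03 and 3.99 under ADR, a change of 0.29 ± 0.99 (SD, n = 5; 95% interval -0.91 to 1.49). It was higher under ADR in 2 of 5 lymphomas, and the ranges overlapped.

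Ccl2 was 7.68, 5.47, 7.44, 7.01 and 5.24 native and 9.72, 5.07, 7.94, 7.82 and 6.03 under ADR in the same order, a change of 0.75 ± 0.88 (SD, n = 5; 95% interval -0.43 to 1.92). Cxcl5 was 3.48, 3.00, 3.46, 2.65 and 3.05 native and 6.25, 2.98, 5.34, 2.71 and 2.93 under ADR. Lymphomas 1032 and 5783 were high under ADR, and the other three stayed within 0.12 of their native arrays. Ccl7 had a mean change of 0.59 ± 0.82 and Ccl3 of 0.56 ± 1.32 (SD, n = 5).

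By its brightest probe set, Cxcl1 was lower under ADR in 5 of 5 Suv39h1- lymphomas, with levels of 7.12, 7.04, 7.64, 6.50 and 7.19 native and 6.93, 6.92, 6.66, 6.50 and 6.43 under ADR. The change of -0.41 (SE 0.23, adjusted p = 0.566) was not called, and the difference in lymphoma 7890 was close to 0. The other two Cxcl1 probe sets gave changes above 0, of 0.36 and 0.35 (adjusted p = 0.875 and 0.916). The changes of Ccl4, Ccl5 and Cxcl16 were -0.03, -0.24 and -0.08. Cxcl12 was at 4.41 ± 0.28 native and 3.98 ± 0.26 under ADR (SD, n = 5), a change of -0.43 (SE 0.13, adjusted p = 0.205). Its other two probe sets changed by -0.02 each.

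The interaction test asks whether the ADR response differs between WT and Suv39h1- lymphomas. By the brightest probe sets the point estimate was above 0 for all 10 members, although 1 other Cxcl12 probe set gave -0.10, and none was called, beside 0.341% of all genes. At an unadjusted p under 0.05 limma gave 7 members and 18.8% of all genes. The difference was 2.61 (SE 0.68, 95% interval 1.22 to 4.01, adjusted p = 0.0704) for Cxcl2 and 0.97 (SE 0.27, 95% interval 0.41 to 1.53, adjusted p = 0.0881) for Cxcl1. The other two Cxcl1 probe sets gave differences of 1.80 and 2.71 (adjusted p = 0.208 and 0.152). For Cxcl5 it was 2.86 (SE 1.09), for Ccl7 2.25 (SE 0.73) and for Ccl2 2.16 (SE 0.66), with adjusted p = 0.167, 0.119 and 0.104. Fitting only the WT and Suv39h1- arrays called Cxcl2 (adjusted p = 0.049), the only member called in any of the alternatives run, in which its adjusted p otherwise reached 0.231. These left out each Suv39h1- lymphoma in turn but no WT lymphoma.

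Ms4a7 was called in the same test, with a difference of 2.64 (SE 0.55, adjusted p = 0.046), and Col1a2 was not (2.31, SE 0.83, adjusted p = 0.147). In Suv39h1- lymphomas the fibroblast list ran from 4.3 to 5.45 native and from 4.23 to 5.86 under ADR, and the macrophage list from 4.18 to 7.58 and from 4.24 to 7.58, and their part in the differences between genotypes was not tested.

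Before treatment no member was called between WT and Suv39h1- lymphomas, where 1.09% of all genes were called and limma gave no member at an unadjusted p under 0.05. The widest point estimates, WT minus Suv39h1-, were -0.67 for Cxcl2 (95% interval -1.96 to 0.63), -0.59 for Ccl7 (-1.40 to 0.23) and 0.54 for Ccl3 (-1.10 to 2.19). Under ADR, Cxcl1 was higher in WT (7.44 ± 0.48, n = 14) than in Suv39h1- lymphomas (6.69 ± 0.23, n = 5), by 0.76 (SE 0.21, adjusted p = 0.0274), and it was the only member called where 6.30% of all genes were called higher. Of the WT arrays, 13 of 14 lay above the highest Suv39h1- array. The call was lost without Suv39h1- lymphoma 7890 or 9250 (adjusted p = 0.0715 and 0.0814) and with all alike lymphomas counted once (0.0979). It was also lost after median centring (0.051) and with the mean of the probe sets (0.0733). Neither of the other Cxcl1 probe sets was called (0.0964 and 0.104). These values were adjusted over all probe sets, where the brightest Cxcl1 probe set had 0.0314 and stayed called. The difference itself was larger with other probe sets, at 1.63 for the mean of the probe sets and 1.88 and 2.25 for the other two, and it was 0.54 after median centring.

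Lymphoma 1032, the array with the low median, weighed on this comparison. Without it 5 members were called, namely Cxcl1, Ccl4 (1.65, adjusted p = 0.00294), Ccl3 (2.24, adjusted p = 0.00496), Cxcl2 (2.85, adjusted p = 0.0122) and Cxcl5 (3.42, adjusted p = 0.0487). The share of all genes called in that fit is not given here, so these calls cannot be read as particular to the chemokines. Ms4a7 was also higher in WT than in Suv39h1- lymphomas under ADR (2.82, SE 0.66, adjusted p = 0.0104), and Col1a2 was not called (1.64, SE 0.88, adjusted p = 0.222). In lymphoma 1032 the levels of Ccl3 were 12.49 native and 12.67 under ADR, while the other Suv39h1- arrays ran from 4.47 to 9.14.

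**Figure D2:**
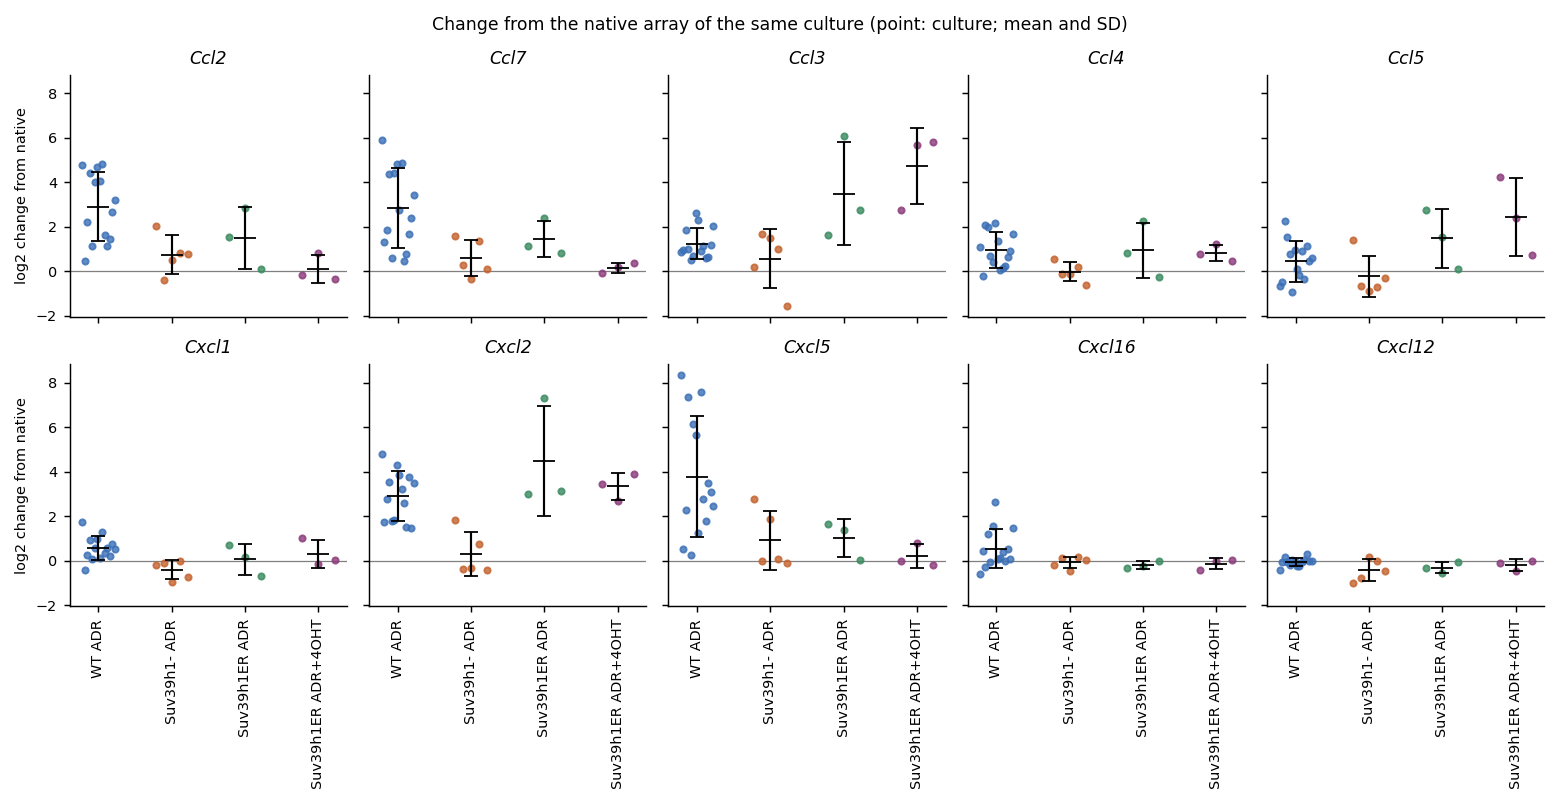
Log2 change from the native array of the same culture for each chemokine, with a point per culture and the mean and SD of each group. Ccl3 and Cxcl2 lie above 0 in all 3 Suv39h1ER cultures with and without 4OHT, and the changes of Ccl2, Ccl7 and Cxcl5 under ADR with 4OHT lie between -0.34 and 0.80.

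In the Suv39h1ER cultures Ccl3 and Cxcl2 were the members called higher under ADR alone, where 0.0879% of all genes were called higher. Whether these responses differ from those of WT lymphomas was not tested. The 3 comparisons of these cultures share arrays. In cultures SuvER-4146, SuvER-4936 and SuvER-5043 Ccl3 was at 8.09, 5.59 and 6.41 native, at 9.72, 11.67 and 9.15 under ADR and at 10.87, 11.26 and 12.22 under ADR with 4OHT. All treated arrays lay above all native ones. The Actb 3′ minus 5′ difference did not overlap between native and ADR arrays either. Against native, Ccl3 was higher by 3.48 (SE 0.63, adjusted p = 0.0146), or 11.2-fold, under ADR and by 4.75 (SE 0.63, adjusted p = 0.000297), or 26.9-fold, with 4OHT. The SDs of these changes were 2.31 and 1.71 (n = 3), while the SEs rest on a spread pooled over all 22 cultures.

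Cxcl2 was at 3.77, 3.39 and 3.41 native, at 6.79, 10.71 and 6.52 under ADR and at 7.21, 6.09 and 7.29 with 4OHT in the same cultures. It too did not overlap between native and treated arrays. The same held between native and ADR arrays for Ccl5, Ccl7 and Cxcl16 (lower under ADR), and between native and 4OHT arrays for Ccl4 and Ccl5. Between ADR arrays with and without 4OHT only Ccl7 did not overlap (lower with 4OHT). The share of all genes without overlap was not counted, so none of these separations can be read as particular to the members. The rise of Cxcl2 was 4.48 (SE 0.75, adjusted p = 0.00877) under ADR and 3.34 (SE 0.75, adjusted p = 0.0169) with 4OHT. Over the 3 cultures the SDs of these changes were 2.46 and 0.60, beside the pooled SE. Both ADR calls rest on culture SuvER-4936, without which the changes were 2.19 for Ccl3 (adjusted p = 1) and 3.07 for Cxcl2 (adjusted p = 0.352). They were also lost with the Suv39h1ER arrays fitted alone (adjusted p = 0.416 and 0.407) and without the pairing of arrays (adjusted p = 0.291 and 0.16).

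Ccl5 was the third member called with 4OHT against native, where 1.38% of all genes were called higher. It was at 5.18, 5.12 and 5.78 native, at 7.94, 6.67 and 5.90 under ADR and at 9.40, 7.50 and 6.51 with 4OHT. Its rise with 4OHT was 2.44 (SE 0.54, adjusted p = 0.0159), and it was 1.48 under ADR alone (adjusted p = 0.251). The 4OHT call was lost without SuvER-4146 (1.56, adjusted p = 0.212) or SuvER-4936 (2.48, adjusted p = 0.119), and that of Cxcl2 without SuvER-4146 (3.29, adjusted p = 0.0629) or SuvER-5043 (3.06, adjusted p = 0.0993). With the Suv39h1ER arrays fitted alone none of the 3 was called (adjusted p = 0.0818 for Ccl3, 0.122 for Ccl5 and 0.191 for Cxcl2), and without the pairing only Ccl3 was.

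The monocyte attractants and Cxcl5 were higher under ADR than native in 3 of 3 cultures, by means of 1.5 for Ccl2, 1.44 for Ccl7 and 1.02 for Cxcl5, and were not called (adjusted p = 0.414, 0.492 and 0.811). Ccl2 was at 5.81, 5.50 and 5.49 native, at 7.36, 8.34 and 5.58 under ADR and at 5.64, 6.31 and 5.15 with 4OHT. Ccl7 was at 3.74, 3.47 and 3.28 native, at 4.86, 5.85 and 4.12 under ADR and at 3.65, 3.66 and 3.65 with 4OHT. Cxcl5 was at 3.01, 3.26 and 2.89 native, at 4.65, 4.66 and 2.91 under ADR and at 3.01, 4.07 and 2.70 with 4OHT. All 3 genes were lower with 4OHT than under ADR alone in each culture.

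None of these differences was called. Between ADR with 4OHT and ADR alone, limma called no member, adjusted or at an unadjusted p under 0.05, beside 0.143% of all genes called and 12.5% at an unadjusted p under 0.05. The difference was -1.40 for Ccl2 (95% interval -2.91 to 0.12), -1.29 for Ccl7 (-2.95 to 0.38), -0.81 for Cxcl5 (-3.31 to 1.68), 1.27 for Ccl3 (-0.02 to 2.56) and 0.97 for Ccl5 (-0.15 to 2.09). Col1a2 was at 4.68, 4.13 and 4.14 native, at 8.29, 9.43 and 6.30 under ADR and at 4.66, 6.56 and 4.85 with 4OHT, and Ms4a7 at 4.87, 4.99 and 5.42, at 6.06, 6.89 and 5.15 and at 5.44, 4.94 and 5.26. The part of these markers in the chemokine values was not tested in 3 cultures.

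Ccl4, Cxcl1, Cxcl16 and Cxcl12 were not called in any comparison of these cultures. Ccl4 was at 5.72 ± 0.44 native, 6.65 ± 0.82 under ADR and 6.54 ± 0.07 with 4OHT (SD, n = 3). Cxcl1 was at 6.74 ± 0.43, 6.80 ± 0.54 and 7.04 ± 0.20, Cxcl16 at 5.79 ± 0.08, 5.59 ± 0.09 and 5.66 ± 0.21, and Cxcl12 at 4.38 ± 0.13, 4.07 ± 0.20 and 4.19 ± 0.16. By these brightest probe sets their changes from native lay between -0.32 and 0.93 on the log2 scale. Another Cxcl1 probe set gave 1.68 under ADR and 1.13 with 4OHT, neither called (adjusted p = 0.534 and 0.713).

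The order of the 7 groups by mean level put WT ADR highest for 7 of the 10 genes, the exceptions being Ccl3 and Ccl5, highest in Suv39h1ER under ADR with 4OHT, and Cxcl12, highest in native Suv39h1- lymphomas. Of the 60 steps between neighbouring groups in these orders, 3 were larger than the larger SD of the pair. These were the steps from Suv39h1- ADR to WT ADR for Ccl2 (1.94), from Suv39h1ER ADR to WT ADR for Cxcl5 (2.84) and from native Suv39h1ER to native WT for Cxcl2 (1.62).

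Across the 14 WT lymphomas the chemokine changes were set beside those of Col1a2 and Ms4a7, with both markers in a single model. Cxcl5, Cxcl1 and Ccl7 had a called positive slope on the Col1a2 change, where 8.0% of all genes were called above 0, and no member had a called slope on the Ms4a7 change, where 0.0440% of all genes were called. Both changes of a lymphoma come from the same 2 arrays. The markers' own changes correlated with r = 0.29 (permutation p = 0.311). Without lymphomas 403 and 5560 this r was 0.56, so the markers did not change independently in the remaining lymphomas.

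Cxcl5 changed by 1.16 log2 units per log2 unit of Col1a2 (95% interval 0.91 to 1.40, adjusted p = 2.19e-05). Its rises of 8.35, 7.60 and 7.35 were in lymphomas 403, 5560 and 2581, where Col1a2 rose by 6.57, 6.34 and 4.32. Its smallest rises of 0.24 and 0.50 were in 2949 and 1467, where Col1a2 rose by 0.79 and 0.45. The correlation was r = 0.92 (permutation p = 1.0e-05, the smallest that 100000 resamples can give, adjusted over 20 relations 0.0002) and rho = 0.96. Its slope on Ms4a7 was 0.56 (95% interval 0.19 to 0.93, adjusted p = 0.342). Without lymphomas 403 and 5560, farthest from the median Col1a2 change, r was 0.86 (adjusted p = 0.0024).

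Cxcl1 had a slope of 0.23 (95% interval 0.13 to 0.33, adjusted p = 0.00378) by its brightest probe set and of 0.70 and 0.82 by the other two (adjusted p = 0.000735 and 0.00319). On Ms4a7 the 3 slopes were -0.01, 0.36 and 0.60, and none was called (adjusted p = 0.99, 0.585 and 0.525). Its correlation with Col1a2 was r = 0.83 (permutation p = 0.00014, adjusted 0.0014) and rho = 0.81. Without lymphomas 403 and 5560 r was 0.66 (adjusted p = 0.178), so the call of the correlation was lost. The slope was called in 18 of 18 settings, with adjusted p values up to 0.0313, without 403.

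Ccl7 and Ccl2 had point estimates above 0 on both markers. For Ccl7 the slope on Col1a2 was 0.52 (95% interval 0.17 to 0.86, adjusted p = 0.0434) and on Ms4a7 0.51 (-0.02 to 1.05, adjusted p = 0.594). When limma was adjusted over all probe sets instead of genes, the Col1a2 slope was not called (adjusted p = 0.0555). The Col1a2 call was lost in 10 of the 14 fits that left out a lymphoma, with adjusted p values up to 0.232, without 403. These were the fits without 1467, 1570, 2581, 2949, 3594, 403, 5043, 5560, 6054 or 9583, with slopes of 0.38 to 0.56. For Ccl2 the slope on Col1a2 was 0.39 (0.08 to 0.70, adjusted p = 0.086) and on Ms4a7 0.53 (0.05 to 1.01, adjusted p = 0.525). Ccl2 was called with Col1a2 alone in the model (slope 0.49, adjusted p = 0.0426), with the mean of the marker lists (0.84, 0.0118), with the alike lymphomas counted once (0.51, 0.0301), and without lymphoma 5043 (0.49, 0.039) or 7050 (0.44, 0.0422).

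Neither correlation of the pair with Col1a2 passed the adjustment over 20 relations. It was r = 0.68 for Ccl7 (permutation p = 0.00907, adjusted 0.0605, rho = 0.63) and r = 0.62 for Ccl2 (permutation p = 0.0181, adjusted 0.0861, rho = 0.65). Without lymphomas 403 and 5560 these were 0.45 and 0.43. With Ms4a7, r was 0.53 for Ccl7 and 0.58 for Ccl2 (permutation p = 0.05 and 0.0283, adjusted 0.143 and 0.0942). With the alike lymphomas counted once, which leaves 11, both correlations with Col1a2 passed the adjustment (r = 0.79 and 0.76, permutation, adjusted p = 0.0364 and 0.0401).

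Ccl3, Ccl4 and Cxcl16 had point estimates below 0 on Col1a2 and above 0 on Ms4a7, as did Ccl5 and Cxcl12, given further on. The slopes on Ms4a7 were 0.28 for Ccl3 (95% interval 0.02 to 0.54), 0.36 for Ccl4 (0.05 to 0.67) and 0.44 for Cxcl16 (0.12 to 0.77), with adjusted p = 0.535, 0.501 and 0.38. On Col1a2 they were -0.15 (-0.32 to 0.01), -0.11 (-0.31 to 0.09) and -0.06 (-0.27 to 0.15). Ccl3 rose by 2.63, 2.30 and 2.04 in lymphomas 3769, 5043 and 9584, where Ms4a7 rose by 4.81, 3.55 and 1.82 and Col1a2 by 3.61, 0.99 and 1.48. In lymphomas 2581 and 3594, with Ms4a7 rises of 5.37 and 3.67, Ccl3 rose by 0.98 and 0.68. Its correlation with Ms4a7 was r = 0.40 (permutation p = 0.155, adjusted 0.258, rho = 0.42). In the lymphomas 403 and 5560, high in Col1a2, Ccl3 rose by 0.85 and 0.91.

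The correlation of Cxcl16 with Ms4a7 was r = 0.61 (permutation p = 0.0215, adjusted 0.0861, rho = 0.47), and 0.27 without lymphomas 2581 and 3769. With Col1a2 it was 0.05, and 0.51 without lymphomas 403 and 5560. For Ccl4 the correlation with Ms4a7 was 0.50, and 0.06 without lymphomas 2581 and 3769. Cxcl2 had slopes of 0.18 (-0.09 to 0.45) on Col1a2 and 0.33 (-0.09 to 0.75) on Ms4a7, Ccl5 of -0.15 (-0.40 to 0.11) and 0.17 (-0.22 to 0.57), and Cxcl12 of -0.03 (-0.10 to 0.04) and 0.02 (-0.08 to 0.12), none of them called. Over all 10 members, 5 slopes were above 0 on Col1a2, where 44.7% of all genes were, and 9 on Ms4a7, where 48.3% of all genes were. At an unadjusted p under 0.05 limma gave 4 members and 27.1% of all genes on Col1a2, and 5 members and 8.65% of all genes on Ms4a7.

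**Figure D3:**
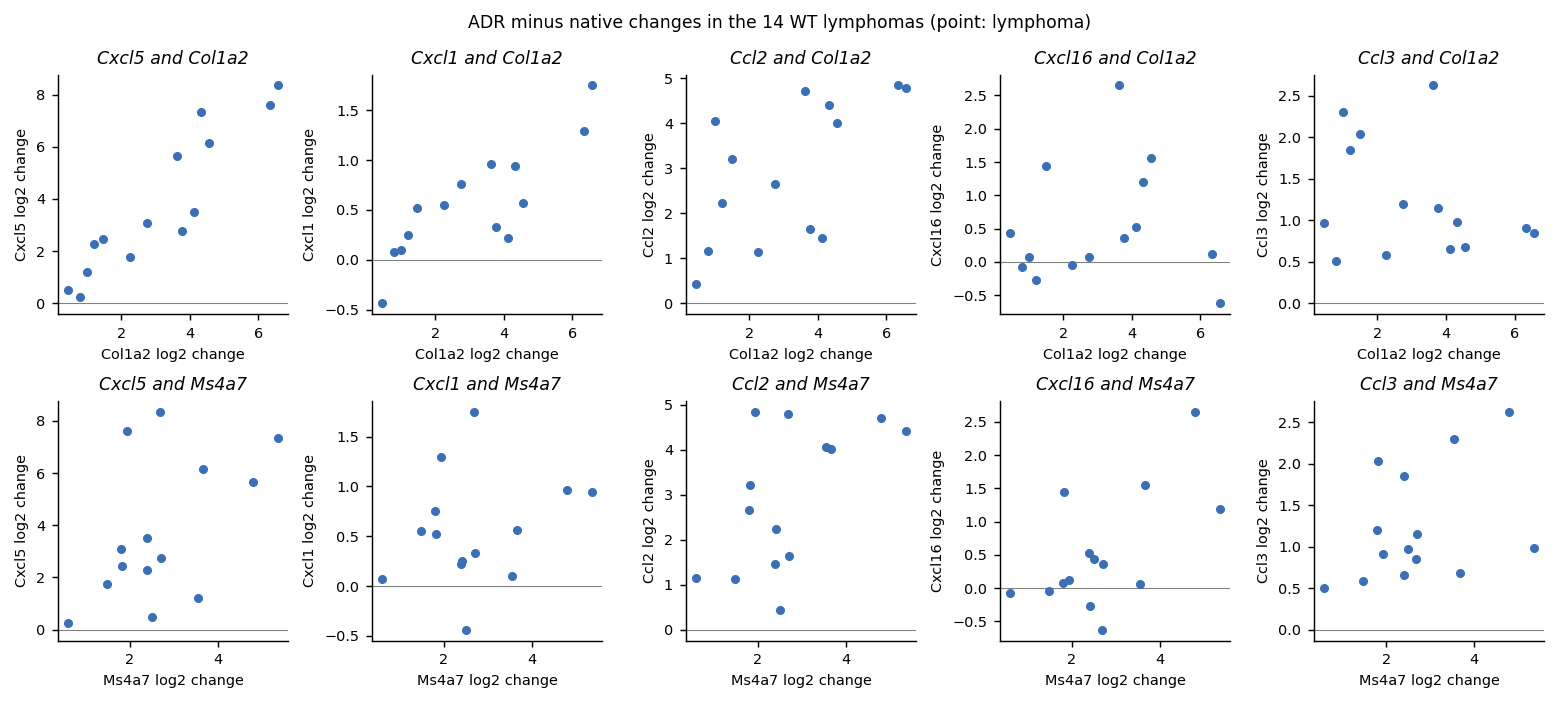
Log2 changes (ADR minus native) of Cxcl5, Cxcl1, Ccl2, Cxcl16 and Ccl3 in the 14 WT lymphomas against the change of Col1a2 (top row) and of Ms4a7 (bottom row), with a point per lymphoma. The points of Cxcl5 follow Col1a2 (r = 0.92), and those of Ccl3 do not rise with it (r = -0.29).

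**Figure D4:**
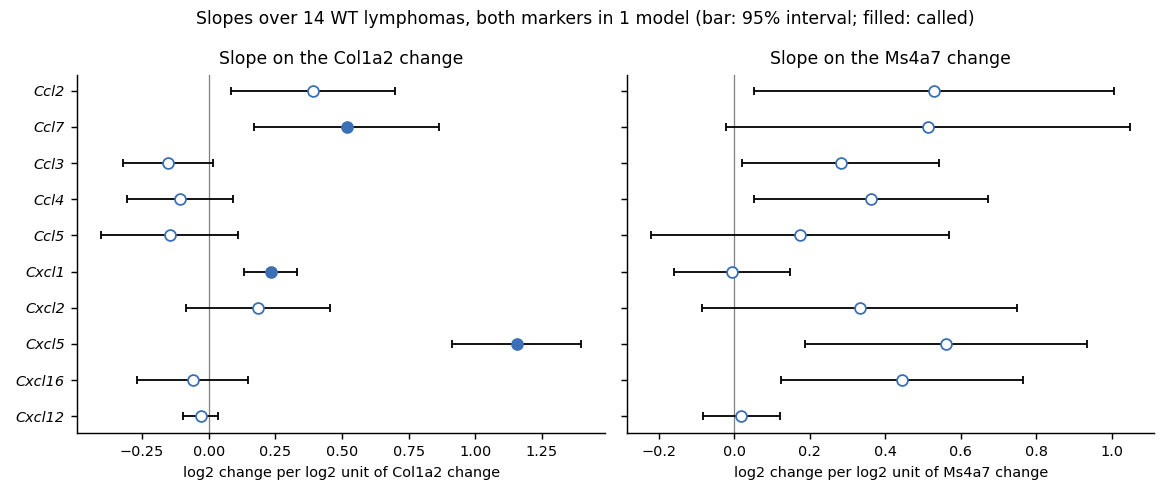
Slopes of each chemokine's change on the Col1a2 change (left) and the Ms4a7 change (right) in a single model over 14 WT lymphomas, in log2 units per log2 unit, with 95% intervals and filled points for called slopes. Cxcl5 has the largest slope on Col1a2 (1.16), and no point is filled on Ms4a7.

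The members were also compared with each other across the 14 WT lymphomas, a set of 45 pairs added after seeing the data. After adjustment 7 pairs passed by r (Pearson), all above 0, and 6 by rho (Spearman). The pairs that passed by both were the 6 among Ccl2, Ccl7, Cxcl1 and Cxcl5, with r from 0.77 to 0.93. Ccl2 and Ccl7, which have no protein-coding gene between them on chromosome 11, had r = 0.93 (permutation, adjusted p = 0.00045, rho = 0.91), and 0.92 without lymphomas 403 and 5560. The neighbours Ccl3 and Ccl4 were the seventh pair by r (0.69, permutation, adjusted p = 0.0409), with 0.50 without lymphomas 1570 and 3769. By rho (0.59) this pair did not pass (permutation, adjusted p = 0.152). The neighbours Cxcl1 and Cxcl2, whose promoters share the printed 11-base stretch, had r = 0.51 (permutation, adjusted p = 0.203, rho = 0.33). All pairs with Cxcl1 used its brightest probe set, and its other probe sets were not compared in this way.

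Outside the members, the genes with levels most like those of each member over all 47 arrays are given. They are a description, since the arrays share lymphomas and treatments. Members were left out of this ranking, so another member may be closer than the genes named. For Cxcl5 these were Osmr (r = 0.96), Pdgfra (0.95), which is also in the fibroblast list, and Pcolce (0.95). Ccl2 and Ccl7 both had Tm4sf1 and Sqor among their closest genes (0.90 each), beside Serpinb6a (0.90) for Ccl2 and Timp1 (0.89) for Ccl7. Ccl3 was closest to Fth1 (0.87), Hcar2 (0.86) and Ccl9 (0.83), and Ccl4 to Edn1, Il6 and Lcn2 (0.81 each). Cxcl2 was closest to Rtn4 (0.85), Lcn2 (0.85) and Mmp9 (0.84), Lcn2 and Mmp9 being in the neutrophil list. By its brightest probe set alone, Cxcl1 was closest to Fbxl16 (0.85), Ptgis (0.81) and Ptges (0.79). Cxcl16 was closest to Orm1 (0.78), Csf3r (0.76) and Tlr8 (0.74). Ccl5 (Stx11, Acpp and Vnn3, 0.68 to 0.70) and Cxcl12 (Lbhd2, Pcdhb8 and Fuz, 0.62 to 0.64) had no gene outside the members above 0.70.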

How the data were processed

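The authors deposited log2 expression levels per probe set for 47 arrays of 22 cultures, and the submitters' processing notes name RMA, oligo and R 3.5.0. Per the labels' protocols, 3 µg of total RNA entered a one-cycle labelling. No source used here says whether all arrays were normalised together. The table holds 45101 probe sets, of which 34958 carry 1 symbol in the platform annotation, 932 several and 9211 are unnamed here. A further step updated symbols by Entrez number (34754 matched). The brightest probe set of each symbol gave 18194 genes, with no filter on dim genes. Values ran from 0.308 to 15.0. No detection call or scan date was used, and the number of arrays limits the precision.

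Changes within cultures were tested with limma 3.58.1 (lmFit, eBayes) in R 4.3.3 over all 47 arrays, with a fixed block for each of the 22 cultures and with 4 treatment terms. The pairing comes from the series' design text, which describes matched cultures. Deviations of a culture's arrays correlated above 0.1 in 10 of 14 WT, 5 of 5 Suv39h1- and 2 of 9 Suv39h1ER pairs. Genotypes were compared over 19 arrays per state without a block. Slopes were fitted on the 14 WT changes. All tests were two-sided, adjusted by Benjamini-Hochberg and called under 0.05. Limma values of brightest probe sets were adjusted over all genes. Those of other probe sets were adjusted over all probe sets, so the adjusted p values of the 2 kinds are not on 1 scale. Correlations of members were adjusted over the 20 marker relations or the 45 pairs of members. Correlations used 100000 resamples. The scripts were tested on simulated data. The labels do not say that every lymphoma came from a mouse of its own, so p-values measure a spread between these samples. In the fit over all 47 arrays this spread was a single estimate per gene, pooled over all cultures and moderated by eBayes. The SEs and p-values of that fit therefore do not measure the spread within a single group, which the SDs give.

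The members, marker genes and the 11 lists were chosen with earlier results of these data known. Named genes are the members, Col1a2, Ms4a7 and up to 3 genes of each list with the smallest p in the WT comparison. For each member, the 3 most alike genes that are no member are named too. Alternatives were fits without the block or with only the genotypes compared, quantile normalisation, median centring and a filter on dim genes. Further alternatives were the mean of all probe sets, a robust variance trend, alike lymphomas counted once, other marker settings and each lymphoma left out. In limma, a WT lymphoma was left out only for the WT change and the slopes, not for comparisons between genotypes. The targeted gene Suv39h1 was not analysed here and does not check the labels.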

Additional observations from a re-analysis of the deposited data

Results flagged for a closer look

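Of 30 groups of 5 values tested (levels and changes of the members in Suv39h1- lymphomas), 3 held a value far from the others by Dixon's test, which chance flags in about 1 of 20 groups. All 3 belong to Suv39h1- lymphoma 1032. Its log2 level of Ccl4 was 9.51 native, where the other four lay between 5.50 and 6.08, and 10.05 under ADR, where the other four lay between 5.35 and 6.01. Its ADR change of Ccl5 was 1.39, where the other four changes were below 0. Its ADR array also had the lowest median of all 47. The part of that median in these values was not tested.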

How the results depend on the processing

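The chemokines called higher in WT lymphomas numbered 8, and 6 to 8 under every alternative run. Leaving out a WT lymphoma gave 7 to 8. With no replicate block for the pairing 6 members were called in WT, 0 in Suv39h1ER under ADR (2 with the block) and 1 with 4OHT (3 with the block). In Suv39h1ER under ADR, 0 were called with only the genotypes compared and 0 to 2 without a culture. With 4OHT against native 0 were called with only the genotypes compared and 1 to 2 without a culture. The difference of responses had 1 call with only the genotypes compared and otherwise 0, but was not refitted without a WT lymphoma. For WT against Suv39h1- lymphomas under ADR, where 1 was called, median centring, the mean of all probe sets and alike lymphomas counted once gave 0, and leaving out a Suv39h1- lymphoma 0 to 5. Slopes on Col1a2 had 3 calls, 1 among genes above the median level, where Ccl7 and Cxcl5 were not tested, and 2 to 4 without a lymphoma. Correlations with the markers had 2 calls, 1 without the 2 farthest lymphomas and 4 with alike lymphomas counted once. No called value changed its sign. The causes were not tested. In all, 42 values of called single genes lost the call and 259 kept it. With 3 to 14 cultures per group and no detection calls used, small changes of dim genes such as Cxcl12 could not be resolved.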
